A study of Mus musculus with 7 samples.

Results

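The genes of the cytosolic ribosomal proteins (RP genes) were examined in mouse embryonic fibroblasts (MEFs) under 6 stress conditions. A row of the expression table was a member if its symbol began with Rpl or Rps and a digit, or was Rpsa, Rplp0, Rplp1 or Rplp2, if it was neither a pseudogene symbol (-ps) nor an S6 kinase, and if its mean was at least 50 TPM. TPM is the share of a library's transcripts that belong to a gene, after division by length and scaled to a total of 1000000, so levels can be compared between genes. Of 49382 rows, 92 matched the symbols and 84 were members. The members were chosen on their level in these libraries, so every level and change is given as a description.

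All 7 libraries came from wild type MEFs taken from E13.5 to E14.4 embryos (days of gestation) and used at passage 3 to 7, with 100000 cells plated per well. Cultures were started from the embryo without its head, liver and other blood-rich tissue. Cells went without glucose, without glutamine or at 0.1% oxygen (hypoxia) for 10 hours, and ER stress of the same length came from 1 μM thapsigargin, which blocks the calcium pump of the ER. Oxidative stress from 10 μM sodium arsenite (NaAsO2) and osmotic stress from 100 mM added NaCl lasted 3 hours. There was 1 library for each condition and 1 untreated control, whose time in culture the labels do not give, so all 6 comparisons share that control.

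The small subunit of the ribosome, 40S, reads the mRNA, and the large subunit, 60S, joins amino acids into protein. Each RP normally occurs as a single copy per ribosome, apart from the paired acidic P proteins of the stalk, so cells need the proteins in matched amounts, and unassembled RPs are degraded. The mRNAs of RPs start with a 5′ terminal oligopyrimidine (TOP) tract, a C followed by a run of C and T, through which mTORC1 and LARP1 adjust their translation without the need for a change in mRNA level. RP genes also have many processed pseudogenes, copies of their mRNA that were inserted elsewhere in the genome.

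With a single library each, the spread within a condition is unknown and no test was made. TPM holds no read count, so the depth of the libraries is unknown. The 8 fibroblast markers, collagens and Vim among them, summed to between 8721 TPM in ER stress and 16202 TPM in hypoxia. The lists of macrophage, endothelial, epithelial, erythroid and muscle markers summed to at most 36.2 TPM in any library, and Hbb-bs, Hbb-bt and Myf5 were listed at 0 in all 7. In bulk samples, fewer cells of a type and less RNA per cell cannot be told apart. Over the 12909 genes averaging 2 TPM or more (kept genes), the median log2 change was -0.16 in oxidative stress, -0.12 in osmotic stress and within 0.1 of 0 in the other 4 conditions. Mitochondrially encoded genes took 6.37% of the control library, 9.25% in oxidative stress and 5.09% in ER stress, and TPM shares of all other genes move with this.

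The RP genes held a nearly constant share of the mRNA in every condition. The 84 members took 10.6% of the control library, 10.3% of the glucose-depleted one, 9.93% of the glutamine-depleted one and 10.3% under hypoxia. They took 10.7% in ER stress, 9.94% in oxidative stress and 11.6% in osmotic stress. Relative to control, the share ranged from 0.938 in glutamine depletion to 1.09 in osmotic stress. The osmotic library was thus the highest and the glutamine-depleted library the lowest, with oxidative stress beside it at 0.939. With the mitochondrially encoded genes taken out and TPM rescaled, the share was 11.30% in control, 11.0% without glucose, 10.7% without glutamine, 11.1% under hypoxia, 11.27% in ER stress, 11.0% in oxidative stress and 12.2% in osmotic stress. On that scale only the osmotic library was above the control, and ER stress, slightly above it before, was slightly below. The 45 members of the 60S took 5.73% of the control library and the 31 members of the 40S took 4.44%, and the ratio of the summed 60S to the summed 40S TPM stayed between 1.24 and 1.29 in the 7 libraries.

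**Figure D1:**
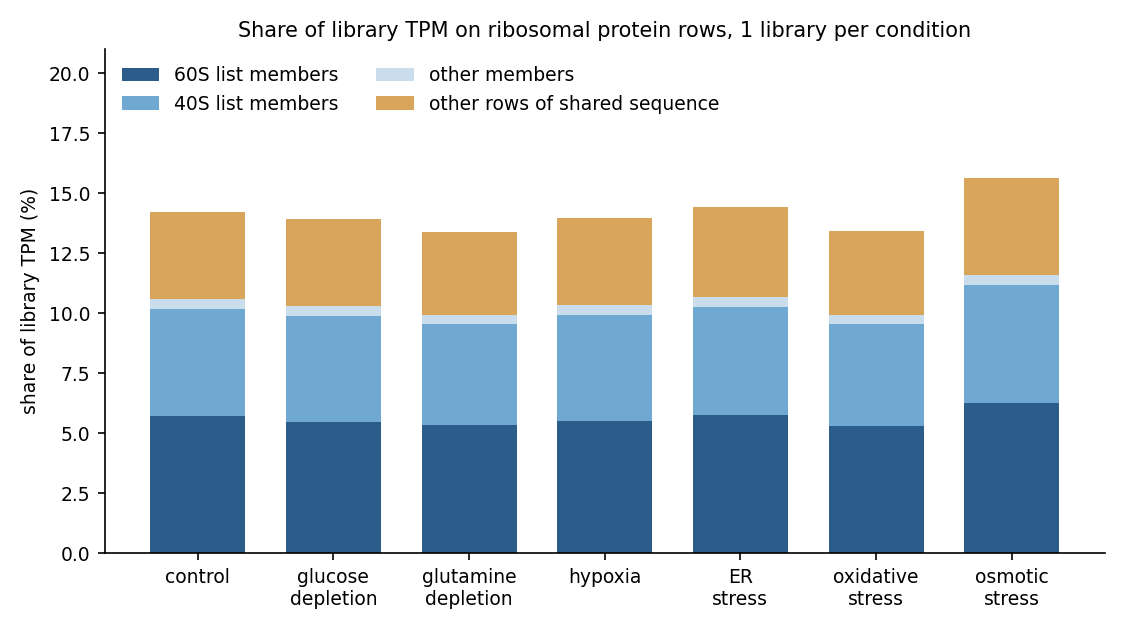
Share of library TPM (%, y axis) on RP rows in each of the 7 libraries (x axis, 1 library per condition), stacked as 60S members, 40S members, other members and other rows of shared sequence, which are mostly pseudogenes. The members stack to 9.93% to 11.6%, and the osmotic stress library is the highest with or without the other rows.

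Levels differed far more between the members than any member differed between libraries. In the control, the 76 members of the 60S and 40S ran from 52.8 to 4459 TPM with a median of 1225 TPM. The highest means were those of Rplp1 (4608 TPM), an acidic protein of the stalk that recruits translation factors, Rps24 (3776 TPM) and Rpl41 (3123 TPM), the smallest member with 25 residues. The lowest means were those of Rpl12 (70.3 TPM), a stalk-base protein, Rps27rt (69.0 TPM), a retrogene copy of Rps27, and Rpl7l1 (62.0 TPM), a paralog of Rpl7. With the rows of shared sequence added, as described next, Rpl12 stood at 2150 TPM in control.

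Most RP rows shared sequence with rows of other genes. Reads were assigned by Kallisto, which matches 31-base stretches (31-mers) of a read to transcripts and divides reads that match several transcripts by an estimate. The share of 31-mers of a member's principal mRNA found in no other gene of the table had a median of 36.7% over 81 members with a coding annotation, from 0.983% for Rpl35 to 97.6% for Rps3. Rps3 and Rpl8 were among the members at 90% or more. When each member was joined to every row that shared at least 50% of its own 31-mers with it, the 84 members formed 82 families with 306 other rows, 284 of them annotated as pseudogenes. With these rows summed, the RP families took 14.2% of the control library, and from 13.4% in glutamine depletion and oxidative stress to 15.6% in osmotic stress.

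The pairs of rows between which TPM was divided were identical over the whole coding sequence in several cases. The 645 coding bases of Rpl10, stop codon included, had 0 differences from Rpl10-ps3, and the same held for the 498 bases of Rpl12 against Gm10275, the 399 bases of Rps12 against Rps12-ps3, the 411 bases of Rpl27 against Gm11518 and the 255 bases of Rps27 against Rps27rt. The 537 coding bases of Rpl11 differed from Gm10288 by 1 substitution, G86A, counted from the A of the start codon. By contrast, Rps27l, a separate gene for a very similar protein, differed from Rps27 at 61 of 255 coding bases, and Rpl36al from Rpl36a at 39 of 321. The opening 60 coding bases of Rps27, of its retrogene copy and of its paralog are shown because TPM could be divided between the first pair and hardly between Rps27 and Rps27l. The stretch of Rpl11 (bases 27 to 86) that holds its only difference is shown with them. Capitals mark the bases that differ within a pair, and the annotation is GENCODE M21 on GRCm38 (Rps27 on the minus strand at chr3:90212522-90213651, Rps27rt minus at chr9:114982366-114982739, Rps27l plus at chr9:66946086-66949516, Rpl11 minus at chr4:136028265-136053428, Gm10288 minus at chr3:146838811-146839347).
Rps27rt (0 bases differ from Rps27): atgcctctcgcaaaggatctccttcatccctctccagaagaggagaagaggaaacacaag
Rps27 (against Rps27l): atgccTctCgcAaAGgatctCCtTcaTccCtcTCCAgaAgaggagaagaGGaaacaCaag
Rps27l: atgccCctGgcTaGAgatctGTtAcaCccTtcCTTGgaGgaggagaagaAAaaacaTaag
Rpl11: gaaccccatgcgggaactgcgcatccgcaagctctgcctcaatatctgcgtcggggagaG
Gm10288: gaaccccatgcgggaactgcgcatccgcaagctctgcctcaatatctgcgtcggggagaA

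In each condition, most members lay close together. On the scale of log2(TPM + 1) against control, the median change of the members was -0.03 without glucose, -0.10 without glutamine, -0.07 under hypoxia, 0.03 in ER stress, -0.13 in oxidative stress and 0.11 in osmotic stress. Relative to the median of all kept genes, the change of the members was 0.028 in oxidative stress, where the sign thus turned, and 0.23 in osmotic stress. All genes with at least 50 TPM, the minimum set for members, had medians of -0.10 and 0.004 in these conditions. Beside them, the members stayed lower in oxidative stress, so the turn of sign holds only against all kept genes. The interquartile range of the members was below that of the 3137 other genes with at least 50 TPM in all 6 conditions. It was 0.13 against 0.23 in glucose depletion, 0.13 against 0.32 in glutamine depletion and 0.24 against 0.37 in hypoxia. It was 0.39 against 0.83 in ER stress, 0.23 against 0.34 in oxidative stress and 0.13 against 0.34 in osmotic stress.

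Few members differed from control by more than 2-fold, but in most conditions few genes of at least 50 TPM did so either. Each count was 0, 1 or 2 of the 84 members, too few to be called above or below the share of those genes. Rps27rt was the 1 higher row in glucose depletion and 1 of the 2 in oxidative stress. In glucose depletion 1 member was more than 2-fold higher and 0 were lower, beside 0.217% higher and 0.466% lower of the 3221 genes with at least 50 TPM (1.83% and 2.41% of genes with at least 2 TPM). In glutamine depletion 0 were higher and 1 was lower, beside 1.74% higher and 0.714% lower of the genes with at least 50 TPM (3.21% in either direction of genes with at least 2 TPM). In hypoxia 1 was higher and 2 were lower, beside 1.71% and 0.869% (3.57% and 2.64% of genes with at least 2 TPM). In ER stress 2 were higher and 1 was lower, beside 6.52% and 8.23% (8.6% and 11% of genes with at least 2 TPM). In oxidative stress 2 were higher and 0 lower, beside 2.14% and 0.931% (3.94% and 4.85% of genes with at least 2 TPM). In osmotic stress 0 were past 2-fold in either direction, beside 1.18% and 1.27% (3.08% and 8.76% of genes with at least 2 TPM). These 10 differences came from 6 rows, namely Rps27rt, Rps12, Rpl12, Rpl10, Rpl27 and Rpl37a. All were joined to other rows of shared sequence, as were 72 of the 84 members. The share of 31-mers found in no other gene was 7.56% for Rps27rt, 7.67% for Rpl10 and 9.48% for Rps12, but 34.8% for Rpl27, 48.0% for Rpl12 and 53.4% for Rpl37a. In ER stress the median distance from the member median was 0.21 for the 22 members under 20% and 0.20 for the 20 members at 50% or more, and in oxidative stress it was 0.17 for both. In hypoxia it was 0.16 for the former and 0.11 for the latter. Rps27rt and Rpl12 reached the minimum of 50 TPM only through libraries in which they were more than 2-fold higher than control, and averaged 31.7 and 47.4 TPM without these, so their counts as higher are in part fixed by the choice of members. Summed over families of shared sequence, only the Rpl37a family in ER stress stayed past 2-fold, so 1 of 82 families was lower and 0 were higher in that condition.

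With a limit of 1.5-fold, the counts of members were highest in ER stress and hypoxia. Higher and lower were 1 and 1 member in glucose depletion (0.745% and 1.83% of the genes), 1 and 1 in glutamine depletion (4.84% and 2.61%), and 2 and 4 in hypoxia (3.07% and 5.06%). They were 4 and 4 in ER stress (16.3% and 18.8%), 2 and 1 in oxidative stress (4.78% and 4.56%), and 0 and 1 in osmotic stress (4.04% and 4.28%). With a limit of 3-fold, 1 member each was higher in hypoxia (1.09% of the genes) and oxidative stress (0.931%), which was Rps27rt, and 1 in ER stress (1.86%), which was Rpl12, the pair of rows whose membership rests on those libraries. In the other conditions 0 were higher, beside 0.0931% without glucose, 0.31% without glutamine and 0.373% in osmotic stress. At 3-fold 0 were lower in any condition, beside 0.279% in glucose depletion, 0.248% in glutamine depletion, 0.248% in hypoxia, 2.95% in ER stress, 0.279% in oxidative stress and 0.342% in osmotic stress.

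**Figure D2:**
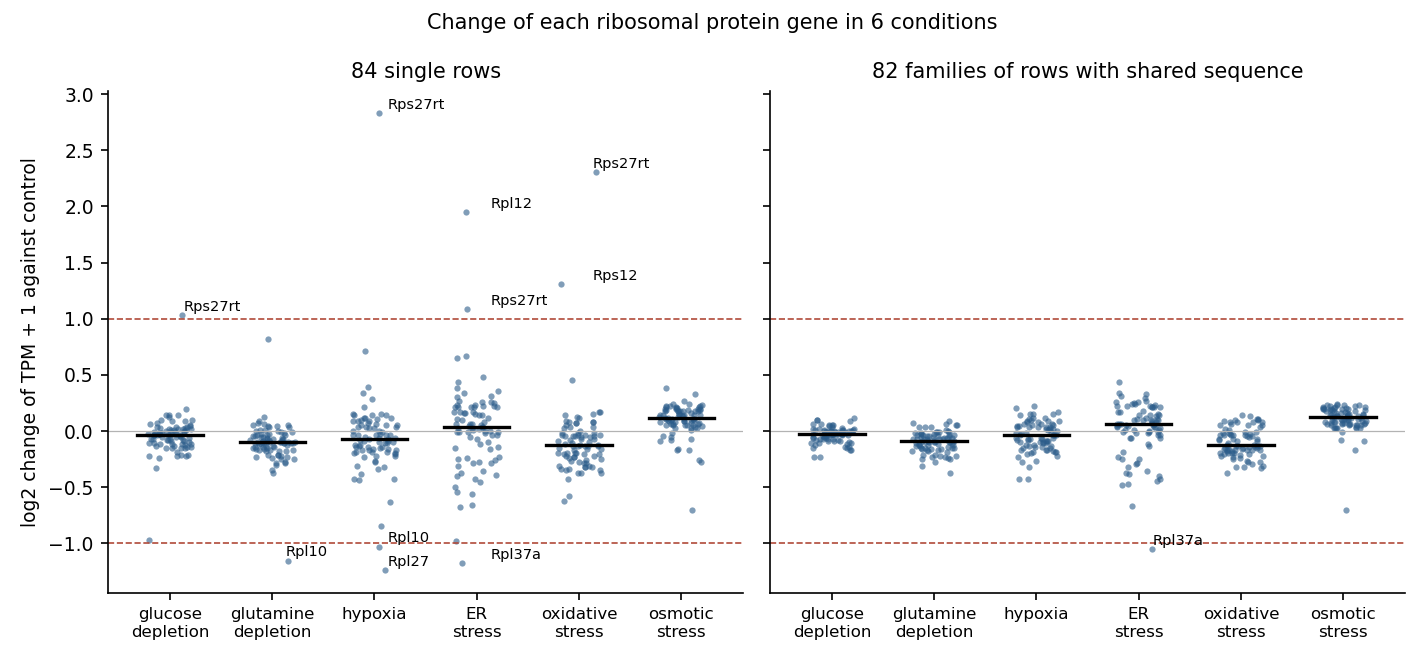
Log2 change of TPM + 1 against control (y axis) in the 6 conditions (x axis), with 1 point per member row on the left and 1 point per family of rows on the right, black bars at the median and dashed lines at 2-fold. The 84 rows include 6 that cross a line in at least 1 condition, and of the 82 families only that of Rpl37a crosses one.

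Rps27rt carried the largest differences of any member, although it was a member only through the libraries in which it was high. Its row stood at 23.1 TPM in control, 48.4 in glucose depletion, 41.6 in glutamine depletion, 171 in hypoxia, 50.3 in ER stress, 118 in oxidative stress and 30.5 in osmotic stress. All 6 stressed libraries were above the control, with log2 changes from 0.38 in osmotic stress to 2.83 in hypoxia. Rps27 itself, a 40S protein with a zinc finger, stood at 2110 TPM in control and between 1896 and 2306 TPM in the stressed libraries. Both rows together came to 2133 TPM in control and 2205 TPM in hypoxia, a log2 change of 0.05, and Rps27 made up most of the sum in every library.

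Rpl10, a late-joining 60S protein that contacts the peptidyl transferase center, had its highest value in the control. Its row held 506 TPM in control, 258 in glucose depletion, 227 in glutamine depletion, 248 in hypoxia, 256 in ER stress, 328 in oxidative stress and 418 in osmotic stress. All 6 stressed libraries were below it, and the change reached -1.15 in glutamine depletion. Rpl10-ps3, which the annotation gives as protein-coding on chr9:50344201-50344968, averaged 1511 TPM, and the Rpl10 family came to 1864 TPM in control and 1587 TPM in glutamine depletion. The family changes lay between -0.23 in glutamine depletion and 0.16 in osmotic stress.

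Rpl12 stood at 52.8 TPM in control, 44.5 in glucose depletion, 57.8 in glutamine depletion, 28.9 in hypoxia, 207 in ER stress, 42.3 in oxidative stress and 58.4 in osmotic stress. The ER stress library stood alone above the rest. Its family, in which Gm10275 averaged 2103 TPM, came to 2150 TPM in control and 2706 TPM in ER stress, a log2 change of 0.33 in place of the 1.95 of the single row. Rps12 held 105 TPM in control, 107 in glucose depletion, 90.03 in glutamine depletion, 172 in hypoxia, 166 in ER stress, 260 in oxidative stress and 116 in osmotic stress, so the row was highest in oxidative stress. Its family, with Rps12l1 and with Rps12-ps3 at a mean of 2378 TPM, came to 3783 TPM in control and 3130 TPM in oxidative stress, a change of -0.27 where the single row gave 1.31.

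Rpl27 held 98.0 TPM in control, 86.0 in glucose depletion, 75.5 in glutamine depletion, 41.0 in hypoxia, 87.7 in ER stress, 75.3 in oxidative stress and 87.7 in osmotic stress. Its family held 1515 TPM in control and 1328 TPM in hypoxia. The hypoxic library was the lowest by both measures, at a change of -1.24 for the row and -0.19 for the family. Rpl5, which with Rpl11 and 5S rRNA forms a particle that can bind MDM2 when assembly stalls, fell short of the minimum with a mean of 38.4 TPM on its own row. Its family, through Gm15500, came to 1437 TPM in control, 1488 in glucose depletion, 1453 in glutamine depletion, 1543 in hypoxia, 1743 in ER stress, 1422 in oxidative stress and 1526 in osmotic stress. It was thus at the level of the other RP families and is the 1 gene of the 46 on the 60S list that the rule leaves out. How Kallisto divided the reads of these families was not tested.

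**Figure D3:**
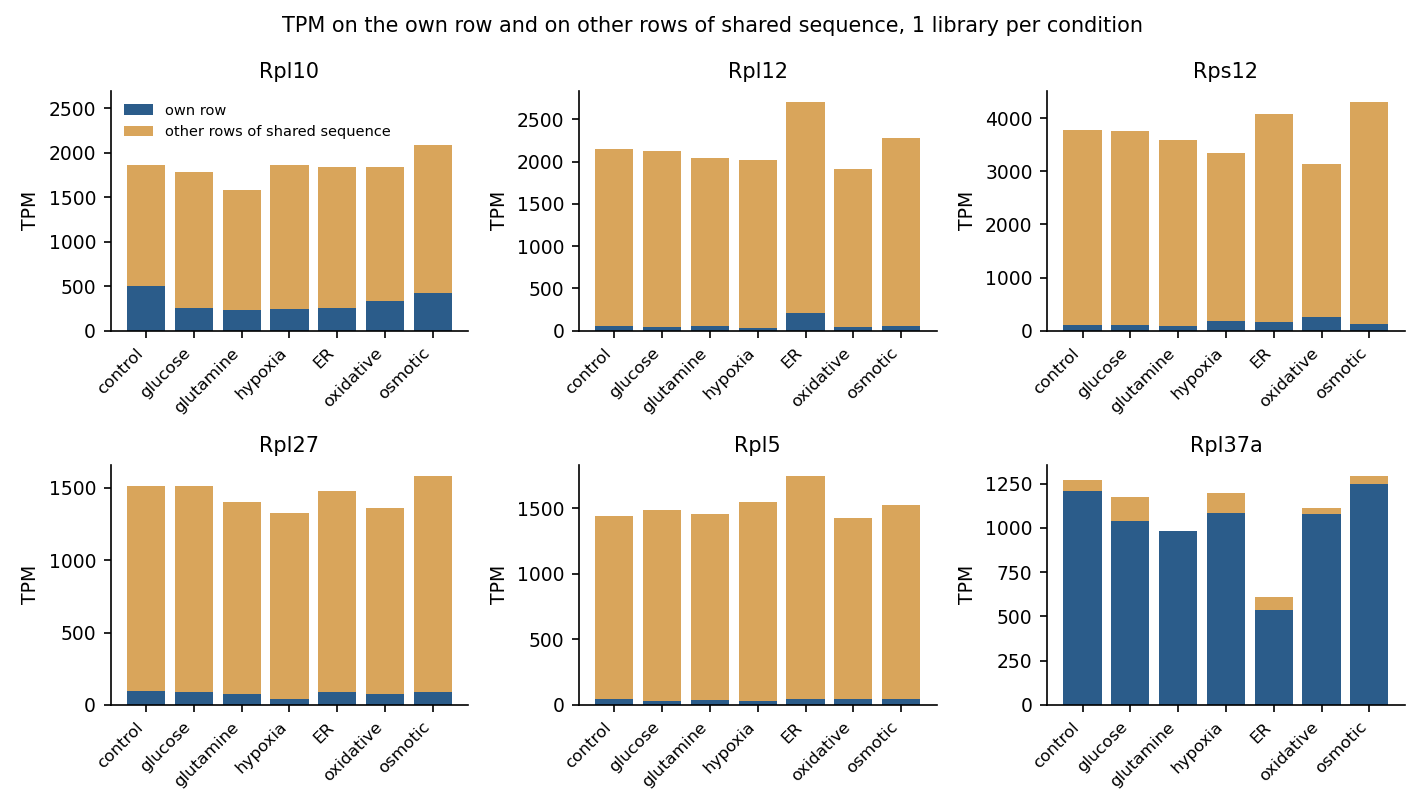
TPM (y axis) in the 7 libraries (x axis) for Rpl10, Rpl12, Rps12, Rpl27, Rpl5 and Rpl37a, with the row of the gene in blue and the other rows of shared sequence stacked above it. The own row is the smaller part except for Rpl37a, whose family stands at 611 TPM in ER stress and at 980 TPM or more in the other 6 libraries.

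Rpl37a was the 1 RP gene whose summed level differed from control by more than 2-fold. Rpl37a, a zinc-finger protein of the 60S, held 1208 TPM in control, 1039 in glucose depletion, 980 in glutamine depletion, 1087 in hypoxia, 535 in ER stress, 1080 in oxidative stress and 1250 in osmotic stress. ER stress was the lowest library, with a log2 change of -1.17 for the row and -1.05 for the family, while the next lowest library, glutamine depletion, gave -0.37 for the family. Rpl36a followed, with 721 TPM in control and 488 TPM in ER stress, and a family change of -0.67. By single row, the members next below the median in ER stress were Rpl10 and Rpl27a, a 60S protein, which was at 651 TPM in control and 407 TPM in ER stress, with a family change of -0.32.

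ER stress spread the RP families more than any other condition, and the same held for other genes. Over the 3137 other genes with at least 50 TPM, the SD of the log2 change was 0.83 in ER stress. It ran from 0.36 in glucose depletion to 0.54 in oxidative stress in the other conditions. The SD of the log2 change over the 82 families was 0.25 in ER stress, 0.07 in glucose depletion, 0.09 in glutamine depletion, 0.13 in hypoxia and oxidative stress, and 0.12 in osmotic stress. Within ER stress, families with a short coding sequence tended to lie lower. The 50 families under 500 coding bases had a median change of 0.02 and the 30 longer ones 0.13, and across the 80 families with a coding length the change had a Pearson r of 0.41 and a Spearman rho of 0.43 with that length. Genes are not independent replicates, and all these points come from the same pair of libraries. Other genes with at least 50 TPM showed a difference in the same direction, with a median of -0.20 for 457 short and 0.02 for 2476 longer genes. In the other conditions r and rho were 0.31 and 0.15 without glucose, 0.33 and 0.30 without glutamine, 0.013 and 0.074 under hypoxia, 0.083 and 0.19 in oxidative stress, and -0.07 and 0.04 in osmotic stress. ER stress was also the library with the lowest sum of fibroblast markers, and the part of coding length or of these markers in the spread was not tested.

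**Figure D4:**
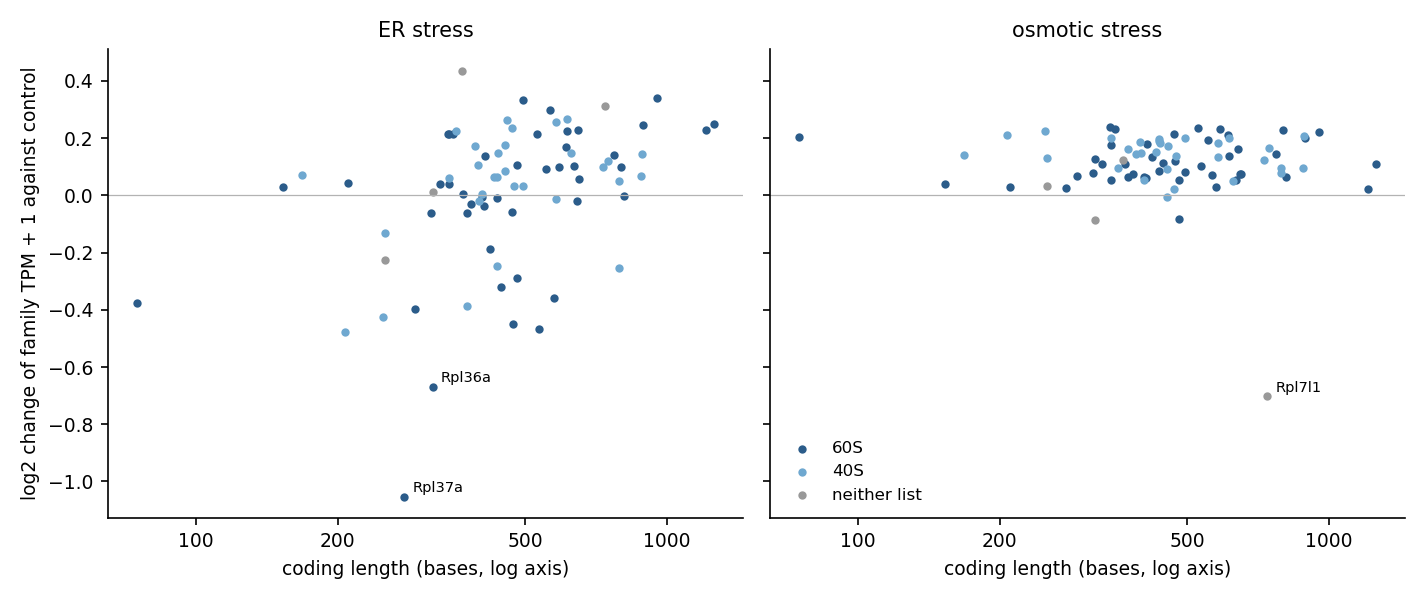
Log2 change of the family TPM + 1 against control (y axis) by coding length in bases (x axis, log scale) in ER stress (left) and osmotic stress (right), with 1 point per family colored by subunit. Rpl37a and Rpl36a lie lowest in ER stress among short families, and in osmotic stress most families lie between 0 and 0.25 with Rpl7l1 at -0.70.

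Rplp0 and Rps3 are abundant members of the 60S and of the 40S. Rplp0, the scaffold of the stalk, held 2544 TPM in control, 2707 in glucose depletion, 2525 in glutamine depletion, 2705 in hypoxia, 3222 in ER stress, 2468 in oxidative stress and 2967 in osmotic stress. Rps3, a protein at the mRNA entry of the 40S that also takes part in DNA repair, held 1264 TPM in control, 1234 in glucose depletion, 1213 in glutamine depletion, 1180 in hypoxia, 1354 in ER stress, 975 in oxidative stress and 1377 in osmotic stress. Both were above control in ER stress and in osmotic stress and below it in oxidative stress, by -0.37 for Rps3 and -0.04 for Rplp0. Rps3 was the family farthest below control in oxidative stress, and as 97.6% of its 31-mers occur in no other gene it is among the members least open to division between rows. Rpl8, a 60S protein that is also largely free of shared sequence, had changes of -0.20 in oxidative stress, 0.14 in ER stress and 0.14 in osmotic stress.

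By role, the stalk proteins were among the members above control in ER stress, as were 52 of all 82 families. Of the 3221 genes with at least 50 TPM, 1596 were above control there. Rplp1 stood at 4459 TPM in control and 5176 TPM in ER stress, and Rplp2 at 1480 and 1715 TPM, each a change of 0.21, beside 0.34 for Rplp0 and 0.33 for the Rpl12 family. Rpl11, the partner of Rpl5 in the 5S particle, went apart from it, with a family change of -0.47 in ER stress where the Rpl5 family had 0.28. Of the proteins that line the exit tunnel, Rpl4 had 0.25, the Rpl17 family 0.09 and the Rpl39 family 0.03 in that condition, where the single rows of Rpl17 and Rpl39 gave -0.05 and -0.35. At the mRNA entry, Rps2 varied least of all families, with the highest library 1.10 times the lowest (2896 to 3186 TPM). Rps6, the 40S substrate of the S6 kinases, had family changes between -0.12 in oxidative stress and 0.16 in osmotic stress.

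The osmotic library was the highest for most families. Of 82 families, 55 were highest in osmotic stress and 21 in ER stress, while 28 were lowest in oxidative stress, 22 in glutamine depletion and 18 in ER stress. The ratio of the highest to the lowest library had a median of 1.26 over families and was under 1.5 for 76 of them. In osmotic stress 77 of the 82 families were above control, beside 1628 of the 3221 genes with at least 50 TPM. In which library other genes were highest or lowest was not counted. The largest ratios were those of Rpl37a (2.11), Rpl7l1 (2.05), Rpl36a (1.73) and Rps28 (1.61), a small 40S protein. Rps13, a 40S protein, at 399 TPM in control and 549 TPM in oxidative stress on its own row, had a family change of -0.20 there, opposite in sign to the 0.46 of the row. Rpl13, a 60S protein and 1 of the 3 rows farthest below the median in glucose depletion (1039 TPM in control, 829 TPM there) and in osmotic stress, had family changes of -0.04 and 0.05 in those conditions, so that the sign turned in osmotic stress and not in glucose depletion. Rps16, a 40S protein and 1 of the 3 rows farthest above the median in these conditions (932 TPM in control, 1031 and 1171 TPM), had 0.06 and 0.18. The 60S protein gene Rpl23 in oxidative stress (976 and 724 TPM) gave -0.43 as a row and -0.15 as a family. Rpl24, also of the 60S, in glutamine depletion (964 and 759 TPM) gave -0.34 and -0.09.

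The subunits stayed level with each other. The median change of the 60S members minus that of the 40S members lay between -0.06 in oxidative stress and 0.01 in glutamine depletion over the 6 conditions. Summed over families it lay between -0.06 and 0.02, and its sign in glucose depletion turned from -0.03 to 0.02. A difference of this size between medians had no replicate to be set against.

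The 8 members on neither subunit list were paralogs and copies. Rpl37rt averaged 1279 TPM and Rps12l1 1182 TPM, and the annotation gives both, as well as Rps4l (103 TPM), as pseudogenes. Rpl37rt shared 284 of its 721 31-mers with Rpl37, below the share that joins rows, and Rpl37 with Rpl37rt summed to 1637 TPM in control and 1325 TPM in ER stress, a change of -0.30. Rpl36al (629 TPM) and Rps27l (550 TPM), a p53-responsive paralog of Rps27, had changes of -0.22 and -0.42 in hypoxia. Rpl22l1, a paralog of Rpl22 that can take its place, held 208 TPM in control and 282 TPM in ER stress, a change of 0.44, the highest of all families in that condition, while Rpl22 had -0.03. Rpl7l1 held 67.6 TPM in control, 69.3 in glucose depletion, 67.3 in glutamine depletion, 49.98 in hypoxia, 84.2 in ER stress, 54.3 in oxidative stress and 41.2 in osmotic stress. It was the family farthest below control in osmotic stress, at -0.70. Just inside the minimum lay Rpl12, Rps27rt and Rpl7l1, and just outside it Rps19bp1 (41.5 TPM), which encodes a binding partner of Rps19 and no RP, and Rpl5, followed at a distance by Rpl39l (10.7 TPM).

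Fau and Rack1 encode proteins of the 40S under symbols that the name rule does not take in. Fau, which encodes a ubiquitin-like protein fused to the 40S protein eS30, held 217 TPM in control on its own row and 1035 TPM as a family, with family changes from -0.09 in glutamine depletion to 0.29 in hypoxia. Rack1, a scaffold on the head of the 40S with no joined row, held 1571 TPM in control, 2026 TPM in ER stress and 1929 TPM in osmotic stress, with changes of 0.37 and 0.30.

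Genes that act with RPs lay apart from them in several conditions. In ER stress the 20 genes of ribosome assembly had a median change of 0.81, and 8 of 20 were more than 2-fold higher, beside 8.6% of kept genes. The changes ran from 0.16 for Bysl, a 40S assembly factor, to 1.56 for Heatr1, a factor of rRNA transcription and processing. In hypoxia the same list had a median of -0.58, and all 20 were below control, as were 7162 of the 12909 kept genes. More than 2-fold lower were 2 of 20, beside 2.64% of kept genes. The changes ran from -1.19 for Polr1b, a subunit of RNA polymerase I, to -0.02 for Ubtf, an activator of that polymerase. In oxidative stress the median was -0.31. The 7 chaperones dedicated to single RPs had medians of 0.64 in ER stress, -0.45 in hypoxia and -0.42 in osmotic stress. In the last, 2 of 7 were more than 2-fold lower, beside 8.76% of kept genes, with Grwd1, the escort of Rpl3, at -1.10. The RP families had 0.06, -0.04 and 0.12 in these 3 conditions. The lists were compiled with earlier results of these data known, and no test of the difference was made.

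Genes whose mRNAs also carry a TOP tract had small median changes, as did the RP genes and all genes with at least 50 TPM. The 14 of them, Eef1a1 and Tpt1 among them, had medians of 0.01, 0.00 and -0.01 without glucose, without glutamine and under hypoxia, and of 0.09, -0.16 and 0.10 in ER, oxidative and osmotic stress. None was past 2-fold. In ER stress they ran from -0.65 for Hnrnpa1, an RNA-binding protein, to 0.66 for Npm1, a nucleolar protein. All 3221 genes with at least 50 TPM had medians of 0.007 without glucose, -0.05 without glutamine and -0.07 under hypoxia. Their medians were -0.005 in ER stress, -0.10 in oxidative stress and 0.004 in osmotic stress. The TOP genes were thus clearly nearer to the RP genes than all these genes were in osmotic stress alone. The 80 genes of mitochondrial ribosomal proteins, which build a separate ribosome, had medians of -0.02 in glucose depletion, -0.19 in glutamine depletion, 0.02 in ER stress, -0.29 in hypoxia, -0.30 in oxidative stress and -0.24 in osmotic stress. Among 11 genes that control TOP mRNAs or RP transcription, the median in ER stress was 0.16, with 8 above control and 3 below it. Of the 12909 kept genes, 6442 were above control in that condition. Myc was at 56.8 TPM in control, 144 TPM in glutamine depletion and 265 TPM in ER stress, and Eif4ebp1, a target of mTORC1 that restrains cap-dependent translation, was at 207 TPM in control and 476 TPM in ER stress. Larp1 itself was at 65.5 TPM in control and 106 TPM in ER stress. The 3 below control in ER stress were Eif4ebp2, a relative of Eif4ebp1, at -0.32, and the S6 kinase genes Rps6kb1 at -0.36 and Rps6kb2 at -0.51.

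**Figure D5:**
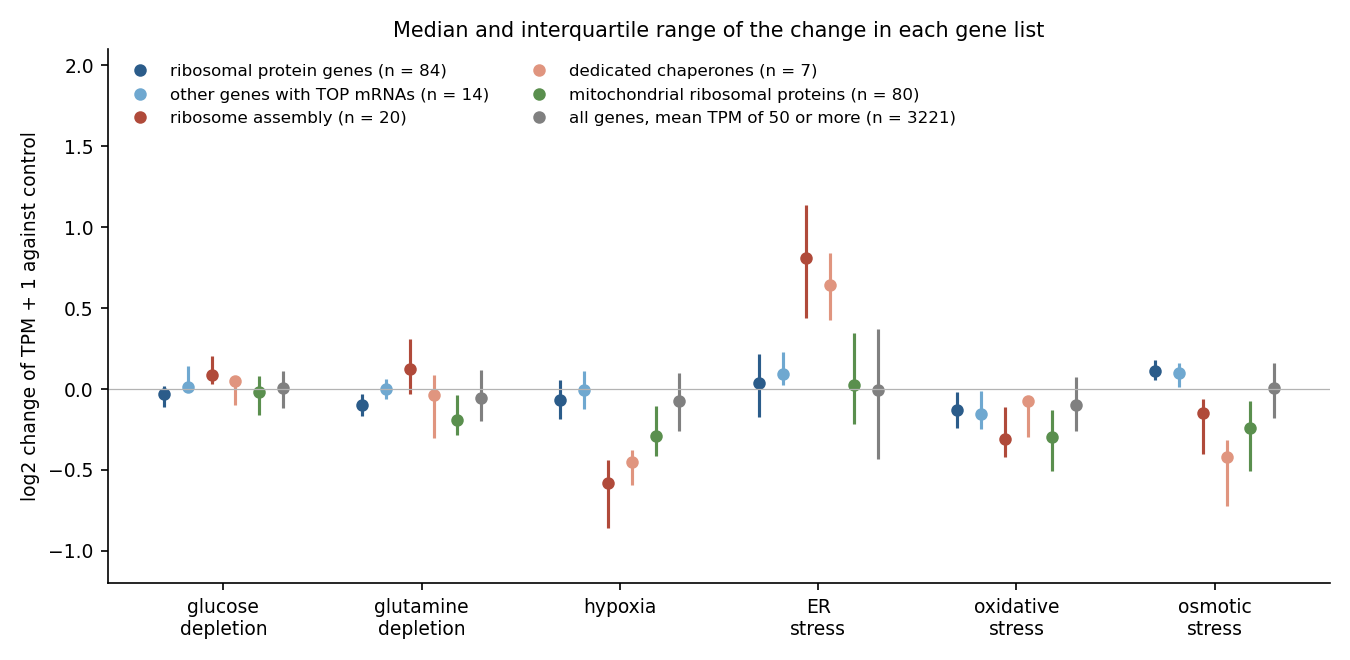
Median (point) and interquartile range (line) of the log2 change of TPM + 1 against control (y axis) in the 6 conditions (x axis) for RP genes, other genes with TOP mRNAs, ribosome assembly genes, dedicated chaperones, mitochondrial ribosomal proteins and all genes with at least 50 TPM, with the number of genes in the key. The RP points lie between -0.13 and 0.11, and the assembly points run from -0.58 in hypoxia to 0.81 in ER stress.

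The members lay on 19 chromosomes, with 15 on chromosome 7 and 4 on X. Beyond their names, the members were compared in the sequence at the start of the gene. The promoter table of RefSeq on GRCm38.p6 held 73 starts of 62 members. The letters CTTTC were found on the sense strand between 25 bases before and 50 bases after the start in 45.2% of these, in 7.39% of 3070 starts of other genes with at least 50 TPM and in 9.63% of all 32851 starts. On the opposite strand (GAAAG) the shares were 11.0%, 7.33% and 9.39%. An unbroken run of at least 8 C or T that reached within 20 bases of the start, which can overlap with CTTTC, was found in 45.2%, 19.6% and 20.98%. Most starts of members thus lacked each feature, and 22 members had no entry in the promoter table. These letters are a description of the windows and no measure of translation, which RNA-seq of total levels does not hold.

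Windows of 30 bases, 15 on each side of the annotated start, are shown for members with CTTTC and, at the end, for Rplp0 and Rps3, whose windows lack it. Capitals mark CTTTC, and all read 5′ to 3′ on the strand of the gene. The windows are Rpl38 (plus, chr11:114668565-114668594), Rpl28 (plus, chr7:4792950-4792979), Rpl7a (plus, chr2:26910792-26910821), Rpl35 (minus, chr2:39005117-39005146), Rplp2 (plus, chr7:141447636-141447665), Rps10 (minus, chr17:27635230-27635259), Rps27 (minus, chr3:90213634-90213663), Rps27rt (minus, chr9:114982725-114982754), Rplp0 (plus, chr5:115559452-115559481) and Rps3 (minus, chr7:99483695-99483724).
Rpl38: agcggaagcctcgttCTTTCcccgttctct
Rpl28: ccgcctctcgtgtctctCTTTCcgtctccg
Rpl7a: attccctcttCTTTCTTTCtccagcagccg
Rpl35: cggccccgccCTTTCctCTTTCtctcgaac
Rplp2: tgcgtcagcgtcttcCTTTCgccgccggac
Rps10: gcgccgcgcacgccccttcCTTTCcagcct
Rps27: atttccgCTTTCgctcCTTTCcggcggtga
Rps27rt: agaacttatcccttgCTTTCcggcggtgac
Rplp0: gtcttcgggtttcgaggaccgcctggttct
Rps3: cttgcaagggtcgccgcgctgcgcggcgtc
Rpl35 and Rps27 carry CTTTC at 2 places in the window, and Rpl7a at 2 overlapping places.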

How the data were processed

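The authors aligned paired reads of 76 bases from a stranded mRNA kit with Kallisto 0.43.1 at default settings to all cDNA of GRCm38 (Ensembl release 90). They deposited TPM per gene, having added up its transcripts. Tables of the other experiments were not used here, and 0 columns belonged to samples of other series.

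From the deposited TPM, shares of the library total and log2(TPM + 1) against the control were computed, the latter understating the change of low genes. The pseudocount and the 2-fold limit follow the study's methods. Members, gene lists and the rule for named genes (highest and lowest members, the 3 farthest above and below the member median in each condition, members on neither subunit list, rows near the minimum) were chosen with earlier results of these data known. Shared 31-mers, gene types and coding lengths came from GENCODE M21, which matched 48681 of 49382 identifiers. A row joined a family if at least 50% of the 31-mers of its transcripts occurred in coding transcripts of the member. Promoters came from RefSeq. Some genes are not reported here. Differences between conditions were not tested, since each had 1 library. The scripts were tested on simulated data. Python 3.11.15, numpy 2.4.6, pandas 2.3.3, scipy 1.17.1 and matplotlib 3.10.9 were used.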

Additional observations from a re-analysis of the deposited data

How the results depend on the processing

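Each condition had 1 library, the depth is unknown, and no value carries an error between cultures. No paired analysis was possible because each group held a single library, and no library could be left out of a group. Of 60 median changes under other settings, 58 stayed within 0.1 log2 of the reported value, as did all 24 differences between the subunits. This limit exceeded every reported difference between the subunits and most reported medians, so it cannot show that a sign was kept. In glucose depletion the difference between the subunits turned from -0.03 to 0.02 within it. The pseudocounts tried were also small beside the level of most members, so they could move little. Centring on all kept genes gave a median of 0.028 in oxidative stress and 0.23 in osmotic stress. It left 1 member lower in hypoxia. With mitochondrially encoded genes removed, the share was 10.7% in glutamine depletion and 11.0% in oxidative stress, both below the 11.30% of the control, as was ER stress at 11.27%.

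Adding rows named as RP pseudogenes gave shares of 12.4% in control, 12.2% in glucose depletion, 11.7% in glutamine depletion, 12.1% in hypoxia, 12.6% in ER stress, 11.6% in oxidative stress and 13.7% in osmotic stress. Summing rows of shared sequence, an alternative chosen after the data were seen, gave 14.2%, 13.9%, 13.4%, 14.0%, 14.42%, 13.4% and 15.6% in the same order. It left 0 families more than 2-fold higher in glucose depletion, hypoxia, ER stress and oxidative stress and 0 lower in glutamine depletion and hypoxia. A pseudocount of 5 TPM left 0 members higher in glucose depletion and 1 in ER stress. A minimum of 100 TPM left 0 higher in glucose depletion, hypoxia and ER stress, 1 higher in oxidative stress and 1 lower in hypoxia.

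At 1.5-fold, higher and lower were 1 and 1 member in glucose depletion, 1 and 1 in glutamine depletion, and 2 and 4 in hypoxia. The counts were 4 and 4 in ER stress, 2 and 1 in oxidative stress, and 0 and 1 in osmotic stress. At 3-fold, 1 was higher in hypoxia, 1 in ER stress and 1 in oxidative stress. In the other conditions 0 were higher, and 0 were lower in any condition. The shares of genes with at least 50 TPM past these limits are given above beside the same counts. The causes were not tested.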
